A study of Macaca mulatta and Mus musculus and Rattus norvegicus with 12 samples.

Results

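The HOXC cluster genes are the 9 homeobox genes HOXC4, HOXC5, HOXC6, HOXC8, HOXC9, HOXC10, HOXC11, HOXC12 and HOXC13. They were found by symbol, put in upper case, in the tables of 3 species, which list 38599 symbols for mouse, 35259 for rat and 28641 for macaque. All 9 had a row in mouse, 8 in rat (all but HOXC11) and 3 in macaque (HOXC6, HOXC10 and HOXC13), which makes 20 rows in all. The study compared RNA of osteocyte-enriched bone from the calvaria, the roof of the skull, with that from the tibia, the larger bone of the shank, in 12 libraries. Mouse gave 2 calvaria (M4, M8) and 2 tibia libraries (M5, M7), each a pool of 3 female C57BL6 animals aged 4 months. Rat gave 1 library per site (R1 from calvaria, R3 from tibia), each a pool of 2 female Wistar animals aged 6 months. Rhesus macaque gave 3 calvaria (G1, G3, T1) and 3 tibia libraries (G2, G4, T2) from single females, whose age of 4 to 6 is in months in the labels and in years in the study's methods. No animal was treated. Periosteum was removed by dissection and scraping with a short collagenase step, and rodent tibiae were spun to clear marrow, so that each library still held whatever other cells remained in the bone.

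HOX genes encode transcription factors that give cells their address along the axes of the embryo. They lie in 4 clusters, and within a cluster the genes are numbered from the 3′ end, so that low numbers are used nearer the head and high numbers nearer the tail and the tip of the limb. Genes with the same number in different clusters are called paralogs. In the limb bud, HOXC genes of the middle of the cluster are known for their use in the hindlimb, whereas most of the skull vault derives from cranial neural crest and head mesoderm, tissues formed where HOX genes are mostly silent.

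Each member carries 1 homeobox of 180 bases, the stretch that codes for the DNA-binding homeodomain. In mouse all 9 members lie on the plus strand of chromosome 15, between positions 102921103 and 103036852 (GRCm38, GENCODE annotation), with HOXC13 first and HOXC4 last. The homeoboxes of 5 members that passed the test in mouse are shown, because they are the sequences shared by the genes on which the results turn. Each lies in the last exon of its gene, in exon 3 for HOXC9 and in exon 2 for the others. They lie at chr15:103035663-103035842 for HOXC4, chr15:103010754-103010933 for HOXC6, chr15:102992571-102992750 for HOXC8, chr15:102983930-102984109 for HOXC9 and chr15:102970848-102971027 for HOXC10. Capitals mark 18 bases, the 6 codons at the core of the third helix, which reads the major groove of DNA.
HOXC4: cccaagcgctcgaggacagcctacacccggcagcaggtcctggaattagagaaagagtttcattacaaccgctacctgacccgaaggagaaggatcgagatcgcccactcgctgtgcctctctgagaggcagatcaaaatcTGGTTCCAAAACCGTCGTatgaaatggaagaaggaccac
HOXC6: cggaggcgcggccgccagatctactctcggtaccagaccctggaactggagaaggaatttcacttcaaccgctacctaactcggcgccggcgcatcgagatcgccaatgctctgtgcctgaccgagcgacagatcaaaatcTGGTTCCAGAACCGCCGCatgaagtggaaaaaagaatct
HOXC8: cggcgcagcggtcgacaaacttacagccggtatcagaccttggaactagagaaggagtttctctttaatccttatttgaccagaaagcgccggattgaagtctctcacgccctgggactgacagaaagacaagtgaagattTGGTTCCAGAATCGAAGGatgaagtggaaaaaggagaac
HOXC9: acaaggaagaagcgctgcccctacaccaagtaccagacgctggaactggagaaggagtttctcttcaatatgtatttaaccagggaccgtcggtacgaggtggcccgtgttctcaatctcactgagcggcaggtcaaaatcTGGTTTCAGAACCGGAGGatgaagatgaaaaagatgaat
HOXC10: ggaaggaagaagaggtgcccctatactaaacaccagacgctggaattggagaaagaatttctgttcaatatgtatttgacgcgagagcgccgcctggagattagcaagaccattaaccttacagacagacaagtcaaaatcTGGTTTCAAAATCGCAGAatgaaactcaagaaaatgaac
The capitals differed in DNA letters among all 9 members but coded for the same residues, WFQNRR, in each. Each homeobox was located by the motif WFxNRR, where x is any residue, and the capitals are that motif. Only the residue at x was free to differ, so the shared residues are mostly set by the search. Over the whole homeobox, pairs of HOXC members were 48.3% to 77.8% identical (median 59.7%, 36 pairs), and HOXC members and paralogs of the same number in other clusters 71.7% to 86.7% (median 79.7%, 20 pairs). HOXC6, for instance, shared 77.8% with HOXC5, which lies next to it, and 84.4% with HOXA6 of another cluster. Of windows of 125 bases over the annotated mouse transcripts, none of HOXC4, HOXC6, HOXC8 and HOXC9 also occurred in another gene. A HOXC5 transcript overlaps 166 exonic bases of HOXC10, and 1.48% of the HOXC5 and 2.47% of the HOXC10 windows were shared between these genes.

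The 12 libraries held between 7951585 and 16826535 reads counted on genes. Values are raw read counts as the authors deposited them, or CPM, those counts over the size of the library after scaling by the trimmed mean of M-values (TMM, a factor that aligns the bulk of genes between libraries). Calls rest on edgeR's quasi-likelihood test, with a false discovery rate (FDR) below 0.2 and a fold change above 1.1, and adjusted p stands for its Benjamini-Hochberg value. A count of 0 in all calvaria libraries of a species allows a level of up to 0.104 CPM in mouse, 0.233 in rat and 0.122 in macaque, taking 3 reads over the site as the limit, which covers counting error only. Other things differed between the sites. The summed osteocyte markers (7 listed genes) lay at 7653 to 10387 CPM in mouse tibia and 1058 to 1884 in mouse calvaria, and at 10584 to 18160 against 5818 to 9452 in macaque. In rat they were at 6941 in tibia and 1448 in calvaria. SOST led the sum in mouse tibia (mean 7131) and MEPE that in macaque tibia (mean 13432). Single genes did not all follow: BGLAP was at 895 in rat calvaria and 386 in rat tibia, short of a log2 ratio of 2. In macaque its mean was 2015 in calvaria and 1294 in tibia, and it was not called (quasi-likelihood adjusted p = 0.401). Its macaque reads overlapped, with 12206, 7181 and 30312 in calvaria and 7797, 1967 and 28906 in tibia. Of the osteocyte markers 4 of 7 in mouse and 2 of 7 in macaque were called higher in tibia, beside 1.57% and 9.43% of all genes tested. Called higher in calvaria were 0, beside 0.712% in mouse and 10.3% in macaque. In rat 4 of 6 passed a log2 ratio of 2 toward tibia, as did 8.14% of all genes. The summed cartilage markers (6 listed, all with reads in mouse) were at 511 to 617 in mouse tibia and 13.4 to 71 in mouse calvaria. COL2A1 led that tibia sum (mean 534), while COL9A1 was at 0.686 in tibia and 0.824 in calvaria. In macaque the sums were 39.7 to 82.9 in tibia and 20.1 to 26.5 in calvaria. HAPLN1 was higher in macaque tibia (mean 57.1 against 12.6) and COL2A1 lower (1.89 against 6.67). The skeletal muscle markers stood at 1006 in rat tibia and 9.92 in rat calvaria. Those of mouse overlapped between the sites (431 to 2272 in tibia, 1660 to 2697 in calvaria). Adipocyte markers were higher in mouse tibia (941 to 1085 against 196 to 505) and lower in macaque tibia (681 to 1435 against 1679 to 2548), and tendon and periosteum markers were higher in macaque tibia (38.4 to 43.8 against 8.85 to 12.2). Summed marrow markers were higher in the calvaria of every species, for example 41791 to 65008 against 10072 to 16146 in macaque. In macaque 5 of 5 were called higher in calvaria, beside 10.3% of all genes. In mouse 2 of 8 were (0 by the likelihood ratio test), beside 0.712%. These were S100A8 and S100A9, which led the mouse calvaria sum (means 36018 and 57585). Mouse ALAS2 overlapped, with 3105 and 7978 reads in calvaria and 5483 and 5457 in tibia. Rat MPO was at 1070 in calvaria and 1024 in tibia. In bulk RNA, fewer cells of a type and less RNA per cell cannot be told apart, and the part these markers play in the HOXC values was not tested.

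In mouse, 6 of the 9 members were higher in tibia, 0 were called in the other direction (0 by DESeq2, and 0 by unadjusted p below 0.05), and HOXC11, HOXC12 and HOXC13 did not pass the test. Of the 22339 genes tested, 1.57% were called higher in tibia and 0.712% higher in calvaria. Both calvaria libraries were close to empty, with 4 (M4) and 7 (M8) reads over all 9 members, against 1463 (M5) and 1321 (M7) in tibia. Members whose tibia libraries both lay above both calvaria libraries numbered 8 of 9 (all but HOXC11), where 18.4% of all genes tested did so. The median log2 fold change over the 9 members was -6.63 (calvaria over tibia), beside 0.05 over all genes tested. The value is a description, since several members had no read in calvaria and their fitted change depends on the constant the model adds.

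HOXC9, which helps to set thoracic and hindlimb identity, had the highest count of the cluster in mouse tibia. It had 471 reads in M5 and 398 in M7 and 0 in both calvaria libraries. That is 26.9 ± 0.43 CPM in tibia (SD, n = 2), at least 258-fold higher than the calvaria (quasi-likelihood adjusted p = 2.98e-06). HOXC8, a gene used in the lower thoracic trunk and the limb, had 366 and 342 reads in tibia and 3 (M4) and 0 (M8) in calvaria. Its tibia level was 22 ± 1.92 CPM, and the log2 fold change was -7.63 ± 0.63 (SE, adjusted p = 2.28e-05). HOXC10, a gene of the lumbar trunk and hindlimb, had 272 and 239 reads in tibia and 0 and 0 in calvaria. Its tibia level was at least 152-fold higher (adjusted p = 1.49e-05). These 3 neighbours supplied 75% of all HOXC reads of the mouse tibia.

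The members at the 3′ end, best known for neck and upper trunk identity, were read less often but separated the sites too. HOXC4 had 144 (M5) and 109 (M7) reads in tibia and 0 (M4) and 4 (M8) in calvaria, a log2 fold change of -5.69 ± 0.81 (adjusted p = 0.00239). HOXC5 had 30 and 27 reads in tibia and none in calvaria, a level at least 16.9-fold higher there (adjusted p = 0.035). HOXC6 had 158 and 200 reads in tibia and 0 and 3 in calvaria, and the log2 fold change was -6.63 ± 0.77 (adjusted p = 0.000516). For all 3 genes the lowest tibia library lay far above the highest calvaria library. The ratio of tibia to calvaria by pooled reads was 56.3 for HOXC4 (95% exact interval 21.7 to 208), 106 for HOXC6 (36 to 517), and 210 for HOXC8 (71.6 to 1021), which shows how little the few calvaria reads fix the size. All calvaria reads of HOXC4 and HOXC6 came from M8 and all of HOXC8 from M4, so that without that library the calvaria had none and the fitted log2 fold changes became -9.97, -10.49 and -11.39, values that depend on the constant the model adds. Without the other calvaria library they were -4.67, -5.6 and -6.79.

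The calls for HOXC4, HOXC5 and HOXC6 depended on the filter on low counts. With edgeR's own filter 15402 genes were tested and 29 called, and of the 6 members left, HOXC8, HOXC9 and HOXC10 passed (adjusted p of 0.0812 to 0.124) while HOXC4, HOXC5 and HOXC6 had adjusted p of 0.245 to 0.324. Their log2 fold changes were then -5.69, -7.76 and -6.62, almost the same as without it. With M4 left out, the calvaria was 1 library without a read of HOXC13. Its fitted log2 fold change was then -6.06, against -3.69 with M4, and no call is read from that fit.

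The 5′ end of the cluster was nearly silent at both sites. HOXC11 had 4 reads in M5 and none elsewhere. HOXC12 had 4 and 2 reads in tibia and none in calvaria. HOXC13, whose known postnatal role is in hair and nail, had 14 (M5) and 4 (M7) reads in tibia and 1 (M4) and 0 (M8) in calvaria (adjusted p = 0.694). Together these 3 genes made up 28 reads, or 1.01% of the HOXC reads of the mouse tibia. Of the skin and hair markers, KRT5, KRT14 and KRT35 had no read in any mouse library, KRT10 had 58 and 31 reads in calvaria and 124 and 100 in tibia, and KRT1 had 12 and 5 in calvaria and 0 and 2 in tibia. HOXA11, a paralog of HOXC11 in the HOXA cluster that was named after its values were seen, had 282 and 167 reads in the same tibia libraries and none in calvaria. The boundary in mouse tibia thus lay between HOXC10, with 511 reads over both libraries, and HOXC11, with 4.

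**Figure D1:**
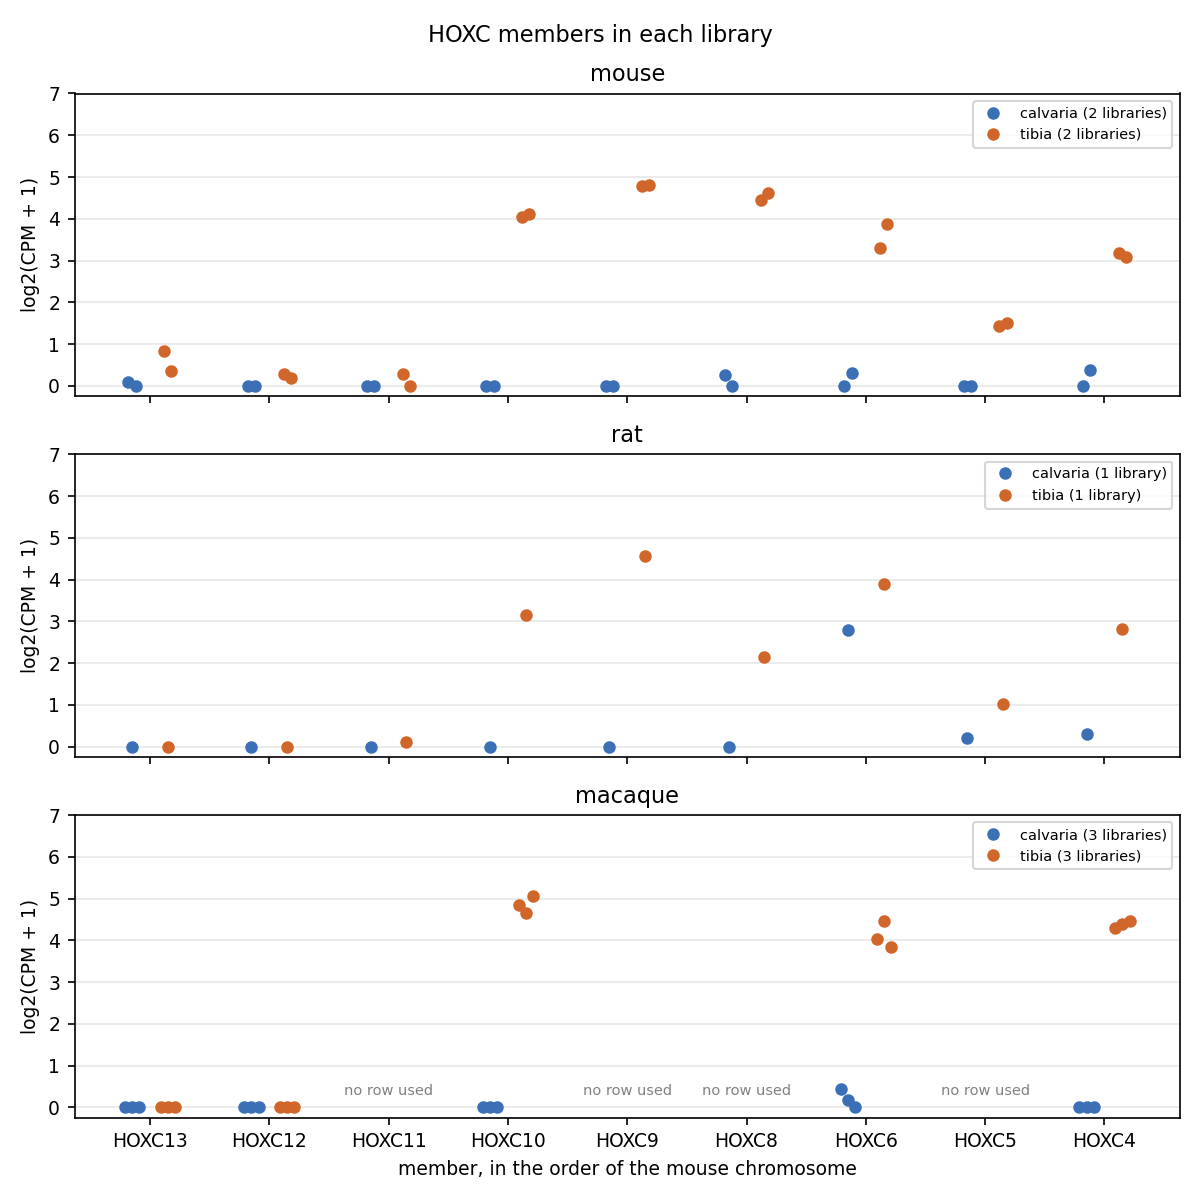
Each point is 1 library, with the member on the horizontal axis and log2(TMM-scaled CPM + 1) on the vertical axis, blue for calvaria and orange for tibia. Tibia points lie above calvaria points from HOXC10 to HOXC4, all points lie near 0 from HOXC13 to HOXC11, and rat HOXC6 is the one member with a calvaria value far from 0. Rat HOXC11 is the row described as Hox-C11-like, and macaque HOXC4, HOXC6 and HOXC12 are rows matched by gene ID.

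Rat had 1 library per site, so that its differences have no replicate check and no p-value. With 1 read added to each count, 5 of the 6 members with reads passed a log2 ratio of 2 toward tibia, against 8.14% of 19234 genes, and none passed toward calvaria, against 1.55%. Over all rows, HOXC reads numbered 743 in the tibia library and 82 in the calvaria library. HOXC9 led again, with 306 reads in R3 and 0 in R1 (at least 97.4-fold higher in tibia on the TMM scale). HOXC10 had 107 and 0 (at least 34-fold higher) and HOXC8 had 46 and 0 (at least 14.6-fold higher). Ratios of genes with reads at both sites are given by library size alone. HOXC4 had 81 reads in tibia and 3 in calvaria, a ratio of 31.5 with an exact 95% interval of 10.4 to 156. HOXC5 had 14 and 2 reads, a ratio of 8.16 (1.87 to 73.9), and with 5 added reads its log2 ratio of -1.66 no longer passed. HOXC12 and HOXC13 had no read at either site, and the row described as Hox-C11-like had 1 read in tibia. As in mouse, reads fell to almost none beyond HOXC10.

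HOXC6 in rat stood apart from the other members. It had 189 reads in tibia and 77 in calvaria, a ratio of 2.86 (exact 95% interval 2.18 to 3.78), and did not pass the log2 ratio of 2 (-1.51). With TMM scaling the ratio was 2.34. These 77 reads were all but 5 of the 82 HOXC reads of the rat calvaria. In the rat table HOXC6 is given 13084 exonic bases, 94.7% of the span of the gene, against 82.3% for HOXC4 and 28.6% for HOXC9, so that most of its introns were counted as exon. Counting took no account of strand, and reads of a transcript on the other strand within that span would enter the count. Whether either bears on the calvaria reads was not tested. In mouse the HOXC6 model is also long (10559 exonic bases, 79.8% of its span), and there the calvaria libraries had 0 and 3 reads.

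In macaque, 2 of the 3 rows found by symbol were higher in tibia and HOXC13 had no read in any library. Of 18894 genes tested, 9.43% were called higher in tibia and 10.3% higher in calvaria. HOXC10 had 252 (G2), 212 (G4) and 336 (T2) reads in tibia and 0 in G1, G3 and T1. Its tibia level was 28.1 ± 4.24 CPM (SD, n = 3), at least 232-fold higher than the calvaria (adjusted p = 4.96e-15). The row printed HOXC6 had 5, 6 and 8 reads in tibia and none in calvaria (adjusted p = 0.0729). That row is described as Hox-A6-like, and it is numbered in the table between rows of HOXA genes, so its symbol goes against its description and it is doubtful as a HOXC gene. It was not left with a call under a stricter FDR of 0.05, nor after edgeR's filter, which removed it.

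Other macaque rows carry only a LOC number, and 3 of these were matched to HOXC genes by gene ID in RefSeq after the data were seen. LOC100430434 is HOXC4 by this match and had 170, 175 and 217 reads in tibia and none in calvaria. It stood at 19.9 ± 1.24 CPM in tibia, at least 163-fold higher than the calvaria (adjusted p = 1.64e-13). LOC704526 is HOXC6 and had 141 (G2), 186 (G4) and 138 (T2) reads in tibia against 3 (G1), 1 (G3) and 0 (T1) in calvaria, and the log2 fold change was -6.56 ± 0.55 (adjusted p = 2.35e-11). Over the other settings it ranged from -7.78, without G1, to -6.01, without T1. All 3 tibia libraries lay above all 3 calvaria libraries for both genes and for HOXC10, where 12.1% of all genes tested did so. LOC704201, HOXC12 by this match, had no read in any library. HOXC5, HOXC8, HOXC9 and HOXC11 had no row that could be used here.

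Per length, the order of the members in tibia can be compared within a species, as TMM-scaled CPM per 1000 exonic bases. In mouse HOXC9 was highest at 15.7 ± 0.25 (SD, n = 2), followed by HOXC8 at 9.3 ± 0.81 and HOXC10 at 8.29 ± 0.36. The ranges of these 3 over the libraries did not overlap, though those of HOXC8 (8.73 and 9.88) and HOXC10 (8.03 and 8.54) came close. HOXC4 followed at 1.66 ± 0.1, HOXC6 at 1.07 ± 0.32 and HOXC5 at 0.649 ± 0.039. HOXC13 (0.192 ± 0.132), HOXC11 (0.124 ± 0.175) and HOXC12 (0.053 ± 0.018) came last. The range of HOXC11 overlapped those of both others, while both HOXC13 libraries lay above both HOXC12 libraries. The order of HOXC4 and HOXC6 was the other way round without the length, at 7.8 ± 0.48 and 11.3 ± 3.36 CPM. Their order per length rests on the 10559 exonic bases that the authors give HOXC6, where the GENCODE transcripts hold 2408. Lengths also differ for HOXC4 (4699 against 2568 in GENCODE), HOXC8 (2369 against 2832), HOXC9 (1719 against 2430), HOXC11 (915 against 2021) and HOXC12 (3423 against 1031). The size of the HOXC9 lead per length thus rests on the authors' length. Without the length HOXC9 was highest too, at 26.9 ± 0.43 CPM. The order of HOXC8 and HOXC10, and that among HOXC11, HOXC12 and HOXC13, therefore holds for the authors' lengths only. Levels thus peaked in the middle of the cluster and not at either end.

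In rat tibia HOXC9 was also highest per length, at 12.5, ahead of HOXC10 at 4.09, HOXC8 at 2.77, HOXC4 at 2.07, HOXC6 at 1.07 and HOXC5 at 0.379. By CPM without the length HOXC6 was second, at 14, behind HOXC9 at 22.6. With 1 library no spread can be given. In macaque tibia HOXC4 (11.5 ± 0.72, n = 3) lay above HOXC10 (8.66 ± 1.31) and HOXC6 (5.08 ± 1.24), with no overlap between neighbours. The order of HOXC4 and HOXC10 was the other way round without the length, at 19.9 ± 1.24 and 28.1 ± 4.24 CPM, since the exonic length is 1731 bases for HOXC4 and 3246 for HOXC10. Gene models differ between the species, for example from 1731 to 4699 exonic bases for HOXC4, so levels are not compared across them.

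**Figure D2:**
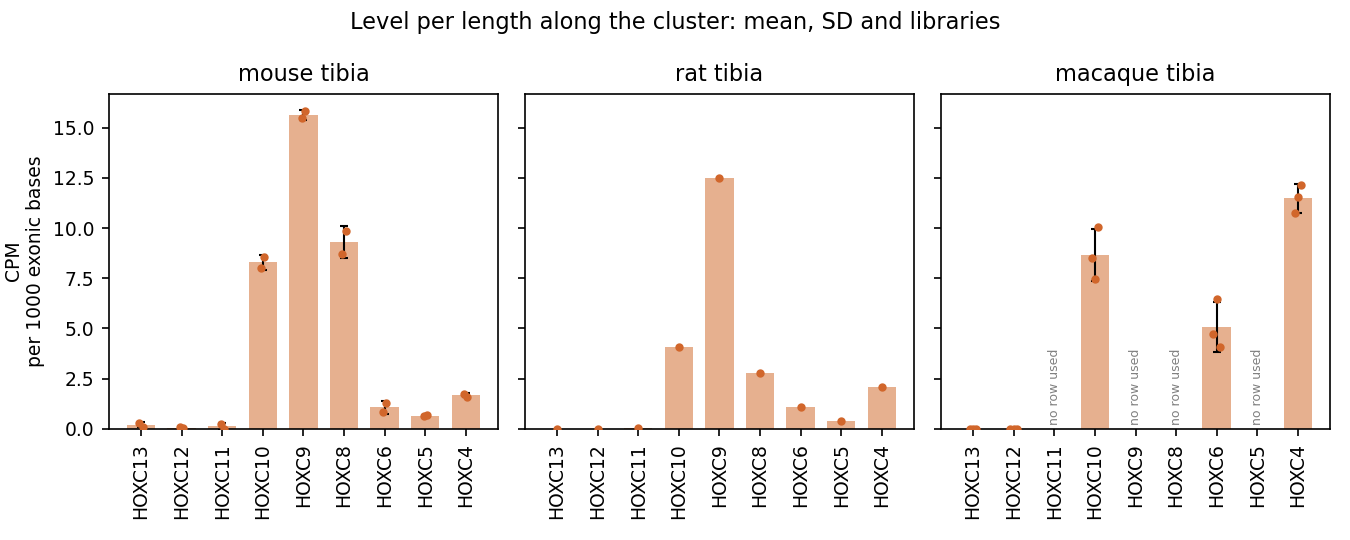
Bars show the mean TMM-scaled CPM per 1000 exonic bases in tibia for each member in chromosomal order, points the libraries and whiskers the SD (mouse n = 2, macaque n = 3, rat 1 library without SD). Mouse and rat peak at HOXC9, with 15.7 and 12.5, and fall to near 0 beyond HOXC10. Rat HOXC11 and macaque HOXC4, HOXC6 and HOXC12 are rows matched by description or gene ID.

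Whether the site effect differed between mouse and macaque was tested as an interaction over the 10 libraries of both species, which were sequenced in different lanes and mapped to different genomes. Of the 2 members tested by symbol, 0 were called (0 with an unadjusted p under 0.05, and 0 called by the likelihood ratio test), where 5.65% of 8196 genes were. For HOXC6 the macaque row was the doubtful one described as Hox-A6-like, so that the test by symbol may not compare the same gene. HOXC10 had 0 reads in every calvaria library of both species, so that its interaction cannot be estimated (adjusted p = 1). With macaque rows matched by gene ID, the adjusted p was 0.993 for HOXC6 and 0.265 for HOXC4. The HOXC4 interaction was 5.23 ± 1.94 on the log2 scale (SE), with an unadjusted p of 0.0224 by the quasi-likelihood test. The separate fits put the log2 fold change of HOXC6 0.07 further from 0 in mouse than in macaque, with a combined SE of 0.94 that leaves a wide interval (mouse minus macaque -0.07). For HOXC4 the mouse calvaria had 4 reads and the macaque calvaria 0, so the size of its interaction depends on the constant the model adds. A p that misses the threshold does not show that the species act alike.

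Genes on both sides of the cluster did not pass the test in mouse. On the 3′ side the next protein-coding gene of the mouse chromosome is SMUG1, a uracil-DNA glycosylase, 116437 bases beyond HOXC4. It had 128 and 114 reads in tibia and 143 and 85 in calvaria, a log2 fold change of 0.06 (adjusted p = 0.982). On the 5′ side the next is CALCOCO1, a coactivator and autophagy receptor, 198924 bases before HOXC13. It had 136 and 122 reads in tibia and 113 and 99 in calvaria, and the log2 fold change was -0.12 (adjusted p = 0.946). Of the 13 listed flanking genes tested in mouse edgeR called 0 (1 had an unadjusted p under 0.05, and DESeq2 called 0). Of all mouse genes tested, 1.57% were called higher in tibia and 0.712% higher in calvaria, so that 0 of 13 is near those shares. Of the 12 in rat none passed a log2 ratio of 2, where 8.14% of all genes passed toward tibia and 1.55% toward calvaria. In macaque 4 of 12 were called, NPFF (log2 fold change -1.2) and CALCOCO1 (-0.44) higher in tibia and HNRNPA1 (0.56) and GPR84 (1.23) higher in calvaria. Of all macaque genes tested, 9.43% were called higher in tibia and 10.3% higher in calvaria. DESeq2 called 2 higher in tibia and 0 in calvaria, and the likelihood ratio and exact tests 1 and 0. All of these changes were smaller than the change of any called HOXC member of that species.

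**Figure D3:**
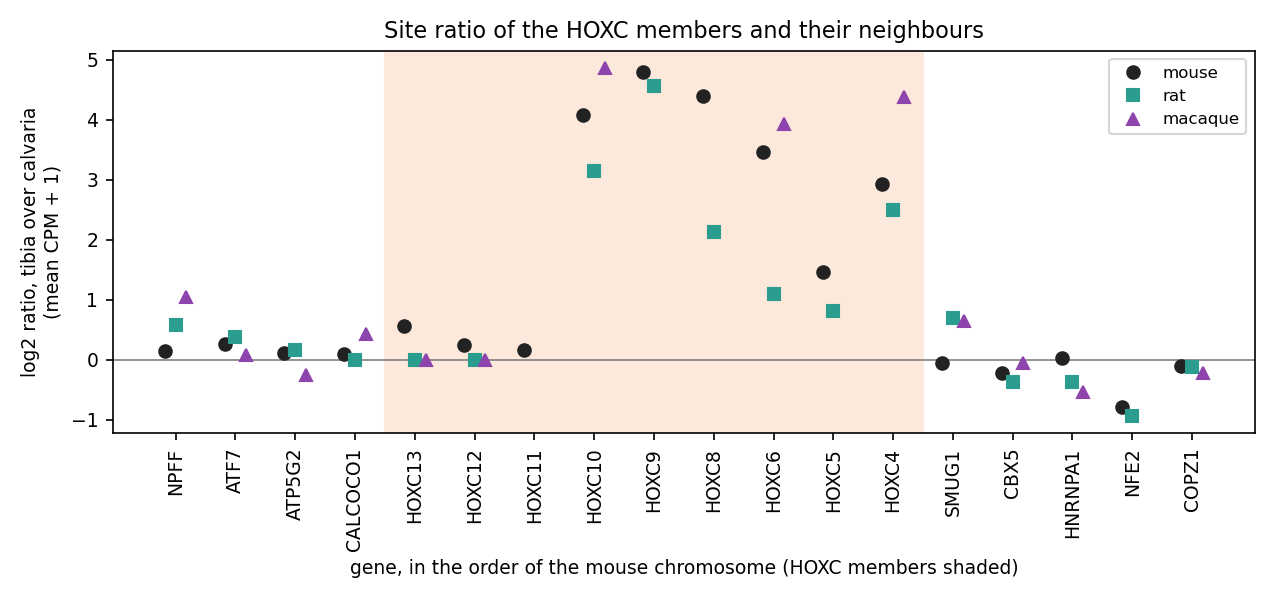
Genes stand in the order of the mouse chromosome, with the log2 ratio of mean CPM + 1, tibia over calvaria, on the vertical axis and HOXC members shaded. In mouse the ratio is 0.1 at CALCOCO1, 4.08 at HOXC10, 4.8 at HOXC9, 2.93 at HOXC4 and -0.05 at SMUG1.

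Non-coding rows within the cluster had few reads. HOTAIR, a long RNA transcribed from the opposite strand between HOXC11 and HOXC12, had 11 (M5) and 2 (M7) reads in mouse tibia and none in calvaria (adjusted p = 0.661). The microRNA rows MIR196A-2 and MIR615 had 1 read and none in mouse, and none in macaque. Poly(A) libraries are poor at showing such short RNAs. An uncharacterised mouse row numbered between HOXC9 and HOXC8, LOC102640931, had 49 and 58 reads in tibia and none in calvaria. In macaque an unnamed row numbered within the cluster, LOC100430320, had 15, 7 and 27 reads in tibia and none in calvaria. Both were named after their values were seen, and neither is a member.

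The other 3 clusters also had more reads in tibia, and in mouse they had more calvaria reads than HOXC. In mouse calvaria (M4 and M8) HOXA rows had 89 and 139 reads, HOXB rows 224 and 327, HOXD rows 39 and 10, and HOXC rows 4 and 7. HOXC genes made up 31% (M5) and 33.5% (M7) of the reads on HOX rows in mouse tibia and 1.12% (M4) and 1.45% (M8) in calvaria. In macaque, with rows matched by gene ID, the shares were 15.7%, 15.5% and 16.4% in tibia (G2, G4, T2) and 3.19%, 0.637% and 0% in calvaria (G1, G3, T1). They rest on 5 HOXC rows, without HOXC5, HOXC8, HOXC9 and HOXC11, and the other clusters also lack rows in macaque. Shares are therefore not compared between species. The sites did not overlap in mouse or in macaque, and each exact two-sided permutation test gave the smallest p its design allows, 0.333 for mouse and 0.1 for macaque. In rat the share was 67.2% in tibia and 74.5% in calvaria, with 77 of the calvaria reads on HOXC6, and there HOXA7, HOXA9, HOXA10 and HOXA11 are listed at 0 in both libraries.

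Over all mouse genes tested, 1.57% were called higher in tibia and 0.712% higher in calvaria. Called higher in tibia in mouse were 6 of 10 HOXA, 3 of 9 HOXB and 1 of 7 HOXD genes tested beside the 6 of 9 HOXC genes, and none was called higher in calvaria. These counts depended on the test for HOXB (6 by the likelihood ratio test, 5 by edgeR's exact test) and HOXD (4 and 2), while those of HOXA and HOXC were 6 by each tool. Median log2 fold changes were -3.04 for HOXA, -3.83 for HOXB, -3.28 for HOXD and -6.63 for HOXC. In macaque 7 of 8 HOXA (6 by DESeq2), 4 of 4 HOXB and 2 of 2 HOXD genes tested were called higher in tibia, beside 9.43% of all genes. HOXA13 was called there on 1, 4 and 8 tibia reads (quasi-likelihood adjusted p = 0.158). Some paralogs of the called members had calvaria reads where HOXC genes had few. HOXB4 had 183 (M4) and 269 (M8) reads in mouse calvaria and 405 and 340 in tibia (log2 fold change -0.52, adjusted p = 0.813), where HOXC4 had 0 and 4 in calvaria. HOXA9 had 32 and 63 reads in calvaria and 391 and 355 in tibia (-2.77, adjusted p = 0.00345), where HOXC9 had none in calvaria. HOXA10 had 5 and 3 against 917 and 808 (-7.55), where HOXC10 had none in calvaria. HOXA5 (-3.31) and HOXD8 (-2.86) were called as well, as was HOXB6 (-4.93). HOXA4, HOXB5, HOXB8, HOXB9, HOXD4, HOXD9 and HOXD10 were not called, with 6 to 51 reads in each tibia library, and HOXA6 had 1 read in all.

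**Figure D4:**
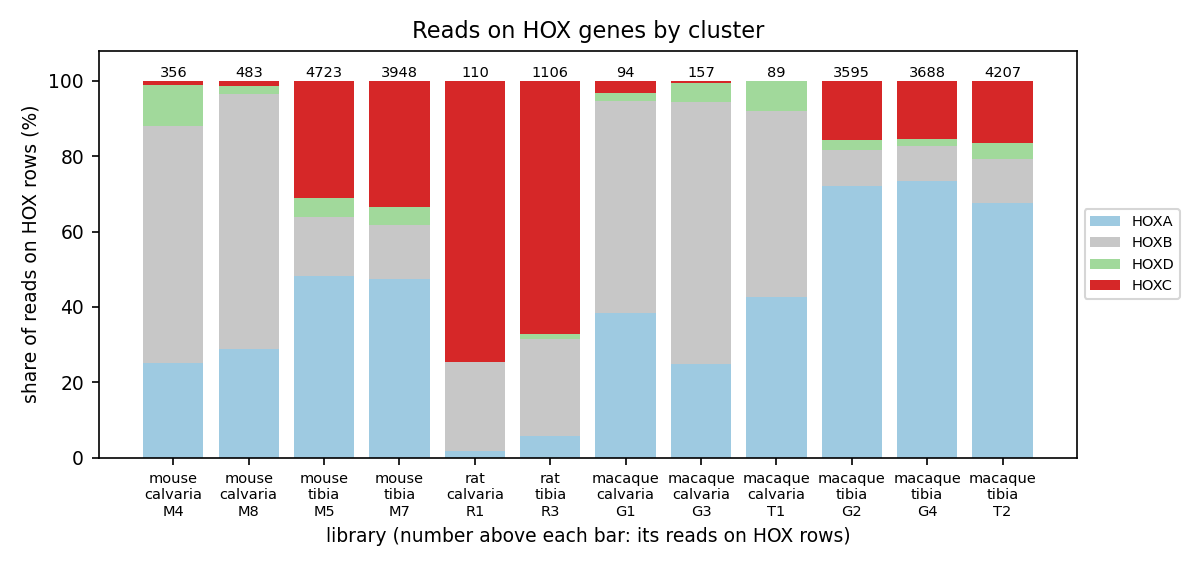
Each bar is 1 library and shows the share of its reads on HOX rows that fell on the HOXA, HOXB, HOXD and HOXC clusters, in percent, with the number of HOX reads above it. HOXC (red, top) rises from 1.12% and 1.45% in mouse calvaria to 31% and 33.5% in mouse tibia, and is large at both sites in rat. HOX reads number 89 to 157 in macaque calvaria and 3595 to 4207 in macaque tibia. The HOX rows at hand differ between species, so shares are compared within a species only.

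HOX proteins bind DNA with TALE partners, the PBX, MEIS and PKNOX proteins, and these were expressed at both sites. Of 10 TALE genes in mouse, edgeR called 0 higher in tibia (1 had an unadjusted p under 0.05, and DESeq2 called 0), beside 1.57% of all genes. It called 1 higher in calvaria, as were 0.712% of all genes. Macaque gave 0 higher in tibia (0 unadjusted, 0 by DESeq2), beside 9.43% of all genes. It gave 1 of 9 higher in calvaria, close to the 10.3% of all genes called so there. That gene was MEIS2 in both, and it had 184 (M4) and 42 (M8) reads in mouse calvaria against 17 and 18 in tibia (log2 fold change 2.77, adjusted p = 0.0537). In macaque it had 89, 80 and 65 reads in calvaria against 26, 40 and 60 in tibia (1.11, adjusted p = 0.0503). In rat MEIS2 had 20 reads in calvaria and 3 in tibia, the one TALE gene past a log2 ratio of 2. Of all rat genes 1.55% passed toward calvaria.

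Polycomb and trithorax proteins keep HOX genes shut or open after the embryo has set them. In mouse edgeR called 0 of the 20 listed genes (2 had an unadjusted p under 0.05, both higher in tibia, and DESeq2 called 0). Of all mouse genes 1.57% were called higher in tibia and 0.712% higher in calvaria. In rat none of 18 passed the ratio, where 8.14% of all genes passed toward tibia and 1.55% toward calvaria. In macaque 4 of 15 were called higher in tibia and 2 higher in calvaria, beside 9.43% and 10.3% of all genes. Those with the smallest p were EZH1 (log2 fold change -1.12, adjusted p = 0.00515) and CBX7 (-0.84, adjusted p = 0.00203) in tibia, and EZH2 (1.55) and SUZ12 (0.39, adjusted p = 0.192) in calvaria. EZH2 is an enzyme of dividing cells, and the marrow markers were higher in the same calvaria libraries, whose part was not tested. Of the CDX, retinoic acid and other genes that act upstream of HOX clusters, edgeR called 0 of 8 in mouse (1 had an unadjusted p under 0.05, and DESeq2 called 0). In macaque RARB, a retinoic acid receptor, was the 1 of 7 called (log2 fold change -1.07, adjusted p = 0.0549). It was higher in tibia, a call made for 9.43% of all macaque genes tested. In rat 3 of 8 passed the ratio toward tibia, as did 8.14% of all genes. Among the 3 was CYP26B1, which degrades retinoic acid, with 583 reads in tibia and 63 in calvaria.

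The 5 genes whose pattern was most like that of HOXC10 over the 12 libraries, out of 7999, were GIMAP4, TNFSF10, HOXA3, EDNRA and BTBD3. Likeness was the Pearson correlation of log2(CPM + 1) after the mean of each species was taken out, and r was 0.987, 0.986, 0.971, 0.968 and 0.96. The points share site and library, so that any gene with a steady site difference in mouse and macaque scores high. TNFSF10, the death ligand TRAIL, had 95 and 69 reads in mouse calvaria and 236 and 189 in tibia, so it shared the direction of HOXC10 but not its silence in calvaria. HOXC6, by the symbols as printed, came 347th with r = 0.763. By rank correlation none of the 5 stayed among the first 5, which were then HOXD10, EZH1, SHC4, FBXO22 and HOXA9.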

How the data were processed

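RNA sequencing counts of 12 libraries were analysed. According to the study's methods, reads were mapped with HISAT2 and counted with HTSeq on merged exons without regard to strand. The submitters' processing notes name BWA 0.7.10-r789, HTSeq and edgeR 3.16.5, with builds mm10 and rn6. The authors deposited raw counts per gene, which were used here, and a normalized CPM signal, which was not used. The exonic length per gene that the authors give, a value of another kind, served for levels per length. All columns of samples were matched to labels (0 were not). Rows that named no gene held 0.00261% to 0.0663% of the reads of a library and were left out, and counts of rows that share a symbol were added up.

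Mouse and macaque were fitted separately in edgeR 4.0.16 (R 4.3.3; TMM, quasi-likelihood test, Benjamini-Hochberg adjustment), with genes having at least 1 read tested. A gene was called at an FDR under 0.2 and a fold change over 1.1. A standard error is the log2 fold change divided by the square root of F, which holds only away from a change of 0. TMM factors lay between 0.884 and 1.12 over all species. The rat ratio used 1 added read, library size alone and a log2 threshold of 2. Folds against 0 reads used 3 reads over the libraries of the site and TMM-scaled sizes. Exact intervals (95%) are conditional binomial on pooled reads and, like the limit, cover counting error only. The interaction of species and site used 10 libraries. Likeness used symbols present in 3 species with a mean of at least 1 CPM in 1 of them.

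The named genes were all 9 members, flanking, non-coding and TALE genes that were called or lie next to the cluster, the 2 called regulators with the smallest p in each direction, HOX paralogs of called members, and the 5 genes most like HOXC10. The members and lists were chosen with earlier results of these data known. Labels do not say which calvaria and tibia libraries share an animal, though the study states that they were paired. With G1 and G2, G3 and G4, and T1 and T2 as pairs, macaque deviations from the site means correlated at 0.203, 0.282 and 0.446 over 12305 genes, and between -0.351 and 0.0898 for other combinations. Pools and animals are the replicates. The fits were checked on simulated counts with 200 genes changed by a log2 fold change of 2. Of these 143 were called in mouse (162 calls in all, 22339 genes) and 198 in macaque (225 calls, 18894 genes). The changed genes were drawn from those above a minimum mean count, and every gene was given the common dispersion. The check therefore does not speak for members with few reads or with none in calvaria. Alternatives covered normalization, filters, tests, thresholds, blocks and leaving out each library. Other software was Python 3.11.15 with scipy 1.17.1, numpy 2.4.6, pandas 2.3.3 and matplotlib 3.10.9, and DESeq2 1.42.0. Mouse sequences and positions are from GRCm38 with GENCODE vM21. RefSeq names for macaque come from a newer assembly, so only names were taken. Some items are not reported here.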

Additional observations from a re-analysis of the deposited data

How the results depend on the processing

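The mouse count of 6 called members stayed at 6 under 8 other settings of normalization, test, threshold and filter, at 6 with the assumed pairs as a replicate block and at 6 with the other assumed pairing. It was 3 with edgeR's filter and 2 of 2 tested with symbols that have reads in all 3 species. Leaving out a mouse library leaves 1 at that site, so calls of those fits are not counted. With at least 1 read asked of every mouse library no member was left, so no value was obtained. In macaque 2 rows by symbol were called, 2 with the replicate block of assumed pairs and 2 without any 1 library. There were 1 with edgeR's filter and 1 at an FDR under 0.05, and 3 of 3 with LOC rows matched by gene ID, an alternative chosen after seeing the data. HOXC4 and HOXC6 matched in this way were called in 15 of 15 settings. In rat the 5 members past the ratio were 4 with 5 added reads, 6 at a log2 ratio of 1 and 5 otherwise. The interaction called 0 members in all settings run, with all 8196 genes giving 33 to 1108 calls without 1 library. For the order per length in mouse, 5 of 9 places stayed without the length and 9 with library size alone. Of the 5 genes most like HOXC10, 0 stayed with rank correlation and 3 with mouse and macaque only. No direction of a member turned in any of these settings. Depth limits the calvaria values, since with 0 to 4 reads per member and library in mouse the size of a fold is a bound or a wide interval.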
